A study of Mus musculus with 6 samples.

Results

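Cadherins are calcium-dependent adhesion molecules that link the membranes of neighbouring cells, mostly by binding to the same cadherin on the other cell. Classical cadherins (types I and II) hold the actin cytoskeleton through catenins, whereas protocadherins have a different cytoplasmic tail and several of them bind the WAVE complex, a regulator of actin branching. In the brain, the clustered protocadherins (alpha, beta and gamma) give single neurons and astrocytes combinations of surface isoforms by choice of promoter, and astrocytes use gamma protocadherins in their contacts with neurons. The genes described here are all those whose symbol is Cdh followed by a number alone or begins with Pcdh. They were 74 of the 22086 mouse genes listed in the data. There were 23 cadherins, 12 protocadherins that stand alone in the genome, and 8 alpha, 22 beta and 9 gamma genes of the protocadherin clusters. The 74 genes carried 73 symbols, since Pcdha11 named 2 of them. Further alpha and gamma genes of the annotation were not analysed here.

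Messenger RNA bound to ribosomes was purified from hippocampal astrocytes by translating ribosome affinity purification (TRAP) and sequenced in 6 libraries. The 3 Cx43KO libraries (tg:Aldh1L1-RPL10aGFP with Gfap Cre and Cx43 fl/fl) lack the gap junction protein connexin 43 in astrocytes by design, and the 3 Cx43FL libraries came from control littermates (tg:Aldh1L1-RPL10aGFP with Cx43 fl/fl). All mice were 6 weeks old and both genotypes carried the floxed Cx43 alleles and a transgene that tags ribosomes under the astrocyte promoter Aldh1l1. Recombination was driven by the hGFAP promoter, which is also active in progenitors of neurons, so that deletion need not be confined to astrocytes. The question put to the libraries was whether adhesion genes of these families differed between the genotypes. Whether each library came from 1 animal is not given in the sources used here, and the p-values measure only the spread between these libraries.

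Total counts were 14787303 to 34733473 per library over the genes analysed, and the 2 deepest libraries were both Cx43KO. Values are normalised counts (CPM, scaled to library size), and levels are compared between genes only after division by the length of the counted transcript (CPM per kb). Gja1, which encodes connexin 43 (chromosome 10 from 56377330 to 56402513, GRCm38), was at 92.0, 91.7 and 82.3 CPM in Cx43FL and at 87.2, 98.4 and 95.1 CPM in the libraries labelled Cx43KO. The groups overlapped, and the log2 fold change was 0.08 with a standard error (SE) of 0.28, so these counts did not show a loss of Gja1 and the directions below rest on the labels. Recombination in this mouse line puts a lacZ reporter in place of the coding DNA, and whether the counted reads fall in the deleted part was not tested. All 10 astrocyte markers were detected, with summed levels of 18624 to 22452 CPM in Cx43FL and 11481, 21097 and 32355 CPM in Cx43KO. Of the 10, 0 had all 3 Cx43KO libraries above the Cx43FL range (8.08% of all genes tested) and 2 had all 3 below (7.45%). The sum of the 12 neuron markers was 2133 to 2845 CPM in Cx43FL, against 7643, 3030 and 4328 CPM in Cx43KO. Of these markers 4 had all 3 Cx43KO libraries above the Cx43FL range and 0 had all 3 below. Cx43KO replicate 1 stood apart, with the highest neuron sum and the lowest astrocyte sum. Oligodendrocyte markers summed to 2662 CPM in that library and to 591 to 1015 CPM in the others. Of these 8 markers 1 lay above the Cx43FL range and 0 below. Choroid plexus markers summed to 461 to 15343 CPM in Cx43FL, against 22119 to 32836 CPM in Cx43KO (6 of 7 above the Cx43FL range). Microglia markers summed to 36.7 to 65.7 against 85.2 to 188 CPM (3 of the 9 tested above and 0 below). Precursors of oligodendrocytes (169 to 183 against 169 to 288 CPM) and ependymal cells (35.4 to 87.9 against 78.1 to 112 CPM) overlapped. Each of these 2 lists had 1 marker above the Cx43FL range and 0 below. Mural markers summed to 31.4 to 40.2 CPM in Cx43FL against 94.7, 41.1 and 91.1 CPM in Cx43KO (2 of 7 above the Cx43FL range and 0 below), with 2 genes at 0 in at least 1 library. Endothelial sums were 8.49 to 13.4 against 10.7 to 23.3 CPM (1 of the 6 tested above and 1 below), with 4 genes at 0 in at least 1 library. The neuron, microglia, mural and choroid plexus sums did not overlap between the genotypes, and the part of these cell types in the differences below was not tested. The number of cells of a type, the RNA per cell and the RNA carried through the purification without the tag cannot be told apart in such libraries.

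The promoters of 3 genes show the sequence around genes on which the results turn. Cdh12 is the gene outside the clusters with a call by DESeq2 (below), and Pcdh10 and Cdh20 had the highest levels per kb outside the clusters in Cx43FL. Each is a window of 300 bases, 250 before to 50 after the RefSeq start (GRCm38.p6), with capitals marking each CG dinucleotide. The first base of the counted transcript lay 0, 27 and 9 bases from the RefSeq start for Cdh12, Pcdh10 and Cdh20, and that of Cdh12 lies inside the full span of the gene, downstream of other annotated starts.
Cdh12, chr15:21111202-21111501, plus strand: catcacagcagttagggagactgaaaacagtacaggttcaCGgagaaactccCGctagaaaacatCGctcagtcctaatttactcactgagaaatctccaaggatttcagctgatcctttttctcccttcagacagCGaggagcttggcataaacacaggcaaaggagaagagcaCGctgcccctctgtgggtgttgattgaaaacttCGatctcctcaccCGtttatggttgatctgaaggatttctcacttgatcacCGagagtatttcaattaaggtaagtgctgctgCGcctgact
Pcdh10, chr3:45378148-45378447, plus strand: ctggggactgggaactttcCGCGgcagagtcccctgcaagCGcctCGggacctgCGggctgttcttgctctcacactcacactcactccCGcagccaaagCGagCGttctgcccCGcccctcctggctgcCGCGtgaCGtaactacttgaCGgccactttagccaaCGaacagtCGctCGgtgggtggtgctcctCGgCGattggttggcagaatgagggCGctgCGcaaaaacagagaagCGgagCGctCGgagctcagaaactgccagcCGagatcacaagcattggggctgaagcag
Cdh20, chr1:104768270-104768569, plus strand: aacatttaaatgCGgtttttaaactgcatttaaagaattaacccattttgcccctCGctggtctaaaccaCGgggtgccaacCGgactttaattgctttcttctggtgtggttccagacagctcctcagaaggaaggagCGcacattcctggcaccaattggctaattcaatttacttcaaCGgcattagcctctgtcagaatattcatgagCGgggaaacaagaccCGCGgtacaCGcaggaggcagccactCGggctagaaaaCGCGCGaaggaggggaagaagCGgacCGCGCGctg
The Pcdh10 window held 24 CG dinucleotides at 62.3% G and C, the Cdh20 window 18 at 50.7% and the Cdh12 window 9 at 46.7%. Over all 32851 RefSeq promoter windows of this length the median was 7 CG dinucleotides (quartiles 3 and 20), so the Pcdh10 window was above the upper quartile and the other two lay between the median and that quartile. RefSeq windows were matched for 22 of the genes. The E-box CACCTG, bound by Snail repressors in the E-cadherin promoter, was found on either strand in 5 of the 25 windows of these 22 genes and in 20.2% of all windows. The GC box GGGCGG was found in 9 of 25 and in 35.7% of all windows, and TATAAA in 2 of 25 and in 13.6% of all windows. Of these 3 motifs the printed windows held 1 GC box, in Pcdh10.

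Of the 74 genes, 57 had enough counts to be tested and 17 did not. Cdh16 and Pcdh12 had no count in any library, a limit of 0.0864 to 0.203 CPM for 3 counts per library. The direction of the differences was mostly upward, but no gene of the families passed the edgeR test. Among the 57 tested genes 48 had a positive and 9 a negative log2 fold change (54.4% positive over all 13545 genes tested), and their median was 0.60 against 0.07 over all genes tested. The quasi-likelihood test of edgeR called 0 of the 57 (background 0.00738% of genes called higher and 0% called lower in Cx43KO), with a lowest Benjamini-Hochberg adjusted p of 0.490. At an unadjusted p below 0.05, 11 were higher in Cx43KO, where the share over all genes was 5.66%, and 0 were lower, where it was 2.67%. In 13 genes the 3 Cx43KO libraries all lay above the Cx43FL range (8.08% of all genes), and in 0 genes they all lay below it (7.45%). Counted by DESeq2, 2 genes were called higher, Cdh12 and Pcdhb18 (0.871% of all genes), and 0 lower (0.14%). Both are among the 3 genes of these families that the study lists as changed from these same libraries, so the listing is not independent evidence of their direction.

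These counts lean on genes that share exons. Of the 13 genes without overlap 6 were alpha protocadherins with nearly the same counts. With 1 gene each kept for the alpha and the gamma cluster, 44 genes were tested, of which 7 lay above the Cx43FL range and 6 had an unadjusted p below 0.05. The median difference of the 57 genes from the Cx43FL mean was 0.90, 0.53 and 0.56 on the log2 scale in Cx43KO replicates 1, 2 and 3, beside 0.02 in each of these libraries over all genes. Without Cx43KO replicate 1 the median log2 fold change was 0.53 and 45 of the 57 were positive, beside 6751 of 13545 over all genes. With 1 gene each for the alpha and the gamma cluster, 35 of 44 were positive, or 32 of 44 without that replicate. The plot of fold changes by family shows this lean to the right.

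**Figure D1:**
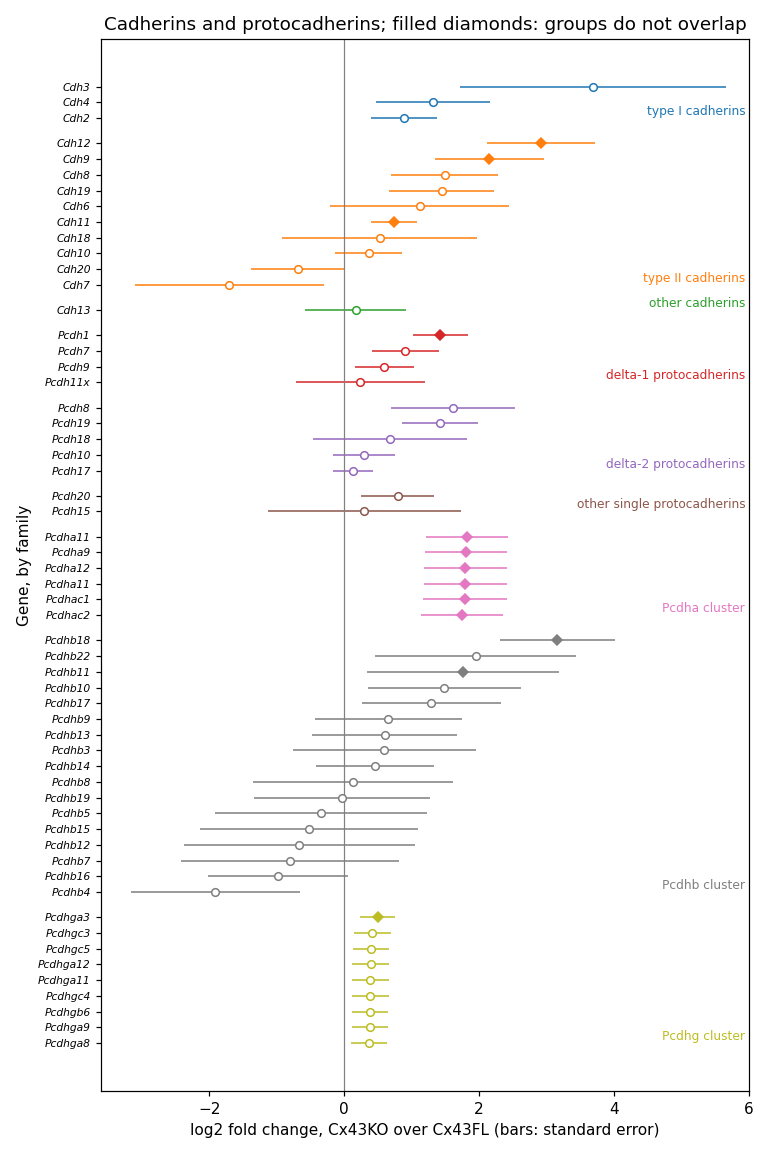
Log2 fold change of Cx43KO over Cx43FL (horizontal axis, bars are 1 standard error derived from the edgeR F statistic, 3 libraries per genotype) for the 57 tested genes, ordered by family and coloured by it. The 13 filled diamonds are genes whose genotypes do not overlap, all of them to the right of 0. The 6 alpha diamonds near 1.80 come from nearly the same counts.

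The levels of the cadherins and single protocadherins in Cx43FL spanned from 0 to 11.97 CPM per kb. Pcdh10, a delta-2 protocadherin that binds the WAVE complex, had the highest mean level (11.97 ± 1.13 CPM per kb, SD, n = 3 libraries) and Cdh20, a type II cadherin, the next (11.8 ± 0.718), a gap smaller than either SD. Cdh10 (7.36 ± 4.08), Pcdh9 (7.14 ± 1.23) and Cdh11 (6.68 ± 0.424) followed, with differences within their SDs. Pcdh1 (5.63 ± 0.849), Pcdh17 (5.52 ± 0.538) and Cdh2 (5.11 ± 1.24) came after them, also within their SDs of one another. By contrast E-cadherin Cdh1, the adhesion molecule of epithelia, reached 0.236 ± 0.320 CPM per kb and VE-cadherin Cdh5, that of endothelium, 0.038 ± 0.019. In the plot of levels, several genes rank differently in Cx43KO replicate 1 from the other libraries.

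**Figure D2:**
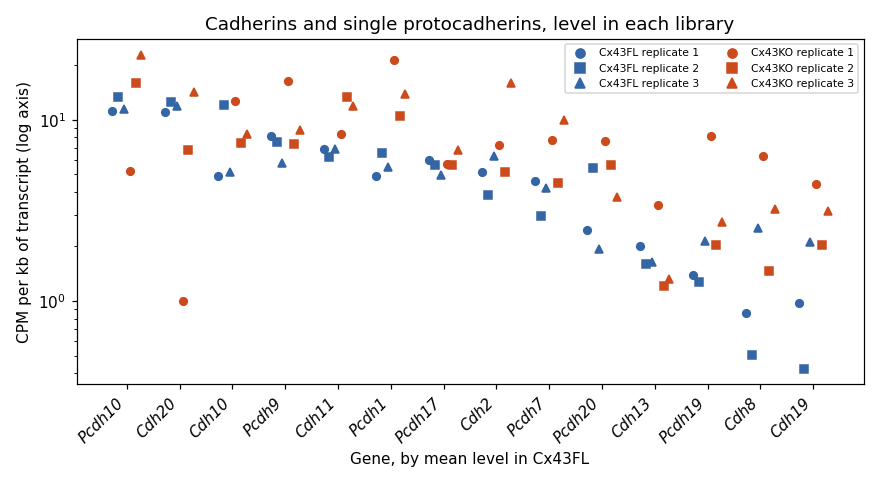
Level in CPM per kb of transcript (vertical log axis) of the 14 cadherins and single protocadherins with the highest mean in Cx43FL, 1 point per library (blue Cx43FL, orange Cx43KO, shapes are replicates 1 to 3). Cx43KO replicate 1 (orange circles) is the lowest point for Pcdh10 and Cdh20, and the highest for Pcdh1, Pcdh9, Pcdh19 and Cdh8, among others.

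Among type I cadherins, which carry the strong adhesion of adherens junctions, 3 of 5 genes were tested and none passed the edgeR test. N-cadherin Cdh2, the classical cadherin of neural cells, was at 25.03, 18.6 and 30.6 CPM in Cx43FL and at 35.1, 24.9 and 77.3 CPM in Cx43KO. Replicate 3 of Cx43KO stood above all others while replicate 2 lay within the Cx43FL range, and the log2 fold change was 0.89 (SE 0.49, edgeR adjusted p = 0.615), or 0.28 without Cx43KO replicate 3. P-cadherin Cdh3, found in several epithelia including pigment epithelium, had 1, 0 and 10 counts in Cx43FL and 109, 0 and 91 in Cx43KO. Its log2 fold change of 3.70, the highest of all 57, had an SE of 1.97, and 1 Cx43KO library had no count at all. R-cadherin Cdh4, expressed in developing brain and retina, had a log2 fold change of 1.31 (SE 0.85). Cdh1 and the muscle cadherin Cdh15 were too low to test.

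Type II cadherins mark subsets of neurons and their connections. Of 13 genes 10 were tested and 8 had a positive log2 fold change. The 3 cadherins whose genotypes did not overlap were all type II, as were 10 of the 14 cadherins tested. Over all genes tested 8.08% lay above the Cx43FL range. In Cx43FL the type II cadherin Cdh12, also called brain cadherin, was at 8.10, 1.66 and 2.54 CPM and in Cx43KO at 33.7, 9.08 and 50.7 CPM (whole gene on chromosome 15 from 20449265 to 21589533). All libraries labelled Cx43KO lay above the Cx43FL range, though replicate 2 of Cx43KO exceeded replicate 1 of Cx43FL by less than the spread within either genotype. The log2 fold change was 2.92 (SE 0.80) and ranged from 2.38 to 3.87 with each library left out, with an adjusted p of 0.490 by edgeR and 0.0130 by DESeq2. The exact 2-sided permutation test gave p = 0.1, the smallest that 3 against 3 libraries allow. Cdh9, which in the hippocampus is a cadherin of dentate and CA3 neurons at mossy fibre synapses, was at 1.98, 3.32 and 3.32 CPM in Cx43FL and 23.4, 5.18 and 9.88 CPM in Cx43KO (chromosome 15 from 16728756 to 16857094). The groups did not overlap, with replicate 1 of Cx43KO highest, and the log2 fold change of 2.16 (SE 0.80, edgeR adjusted p = 0.550) was 1.38 without that library. Cdh11, a mesenchymal and neural cadherin also called OB-cadherin, was at 39.1, 35.0 and 39.1 CPM in Cx43FL and at 47.2, 75.1 and 66.8 CPM in Cx43KO (chromosome 8 from 102632095 to 102785642). It differed from Cdh9 and Cdh12 in that Cx43KO replicate 1 was the lowest of its genotype, and the log2 fold change was 0.74 (SE 0.34, edgeR adjusted p = 0.5995) with all libraries and 0.91 without replicate 1.

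The other type II cadherins overlapped between the genotypes. The neuronal cadherin Cdh8 was at 3.95, 2.32 and 11.7 CPM in Cx43FL and at 29.0, 6.75 and 14.8 CPM in Cx43KO (log2 fold change 1.49, SE 0.80). Cdh19, a cadherin of Schwann cell precursors and other glia, was at 3.82, 1.66 and 8.27 CPM in Cx43FL and at 17.3, 7.998 and 12.3 CPM in Cx43KO (log2 fold change 1.45, SE 0.78). Replicate 2 of Cx43KO fell just under the highest Cx43FL library in Cdh19 and well within the Cx43FL range in Cdh8. Cdh20 was at 44.3, 50.1 and 47.5 CPM in Cx43FL and at 4.04, 27.2 and 56.7 CPM in Cx43KO. The Cx43FL libraries lay close together and the Cx43KO libraries on both sides of them. The Cx43KO libraries followed the order of their astrocyte marker sums and the Cx43FL libraries did not, and a link to those sums was not tested. The log2 fold change of -0.69 (SE 0.69) was -0.18 without Cx43KO replicate 1. Cdh7 was the other cadherin with a negative log2 fold change (-1.70, SE 1.40), from 98, 7 and 30 counts in Cx43FL and 14, 2 and 57 in Cx43KO. Its value was -0.43 without Cx43FL replicate 1 and -0.19 with the transcripts of the gene summed. Cdh10 had a log2 fold change of 0.36 (SE 0.50), Cdh6 of 1.12 (SE 1.33) and Cdh18 of 0.53 (SE 1.45). Cdh5 was too low to test, with 1, 3 and 3 counts in Cx43FL and 11, 4 and 101 in Cx43KO, and most of its counts came from 1 library. Cdh22 and Cdh24 were too low as well. Of the 5 remaining cadherins only Cdh13 (T-cadherin, anchored by a lipid instead of a cytoplasmic tail) was tested, at 7.57, 6.04 and 6.19 CPM in Cx43FL and 12.8, 4.58 and 5.002 CPM in Cx43KO. Its log2 fold change of 0.17 (SE 0.75) turned to -0.47 without Cx43KO replicate 1 and to -0.35 when the transcripts of the gene were summed. Cdh17, Cdh23 and Cdh26 were too low to test.

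All 11 tested protocadherins outside the clusters had a positive log2 fold change (median 0.68), 2 of them with an unadjusted p below 0.05, and 9 of 11 were positive without Cx43KO replicate 1. Pcdh1, a delta-1 protocadherin of epithelia and endothelium, was at 19.0, 25.5 and 21.2 CPM in Cx43FL and at 82.5, 40.6 and 53.8 CPM in Cx43KO. Every Cx43KO library was clear of the Cx43FL range, and no library decided the direction, with log2 fold changes from 1.10 to 1.64 when each was left out. With all libraries it was 1.43 (SE 0.40), with an adjusted p of 0.490 by edgeR and 0.0740 by DESeq2, and p = 0.1 in the exact permutation test. Pcdh1 is the third of these genes that the study lists. The other delta-1 genes, which can bind protein phosphatase 1, overlapped between genotypes, with log2 fold changes of 0.91 (SE 0.50) for Pcdh7, 0.59 (SE 0.44) for Pcdh9 and 0.24 (SE 0.95) for Pcdh11x. That of Pcdh11x was -1.02 without Cx43KO replicate 1.

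Delta-2 protocadherins carry a motif that recruits the WAVE complex, and all 5 were tested. Pcdh19, encoded on the X chromosome and mutated in a female-limited epilepsy, was at 14.4, 13.1 and 22.0 CPM in Cx43FL and at 84.1, 20.98 and 28.1 CPM in Cx43KO. Replicate 1 of Cx43KO stood far above the other libraries and replicate 2 lay inside the Cx43FL range. The log2 fold change fell from 1.43 (SE 0.57, edgeR adjusted p = 0.556) to 0.57 without replicate 1. Pcdh8 (arcadlin), induced by activity at hippocampal synapses, was at 1.38, 5.90 and 2.67 CPM in Cx43FL and at 20.3, 6.55 and 3.67 CPM in Cx43KO (log2 fold change 1.61, SE 0.92, and 0.61 without replicate 1). Replicate 1 of Cx43KO was again the highest, while here replicate 3 lay inside the Cx43FL range. Pcdh10 was reversed in order, at 79.2, 93.9 and 81.2 CPM in Cx43FL and 36.9, 113 and 162 CPM in Cx43KO. In Cx43KO 1 library lay below and 2 lay above all Cx43FL libraries, and the log2 fold change of 0.29 (SE 0.45) became 0.69 without Cx43KO replicate 1 and -0.18 without Cx43KO replicate 3. Pcdh17, involved in the assembly of presynaptic terminals, varied little, at 68.8, 64.3 and 56.6 CPM in Cx43FL and 65.5, 64.2 and 78.2 CPM in Cx43KO, and its log2 fold change was 0.13 (SE 0.30). Pcdh18 had a log2 fold change of 0.68 (SE 1.14), or -0.68 without Cx43KO replicate 1. Of the others, Pcdh20 was at 0.79 (SE 0.54) and the hair cell tip link protein Pcdh15 at 0.30 (SE 1.44). The plot of fold changes with and without replicate 1 shows these shifts.

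**Figure D3:**
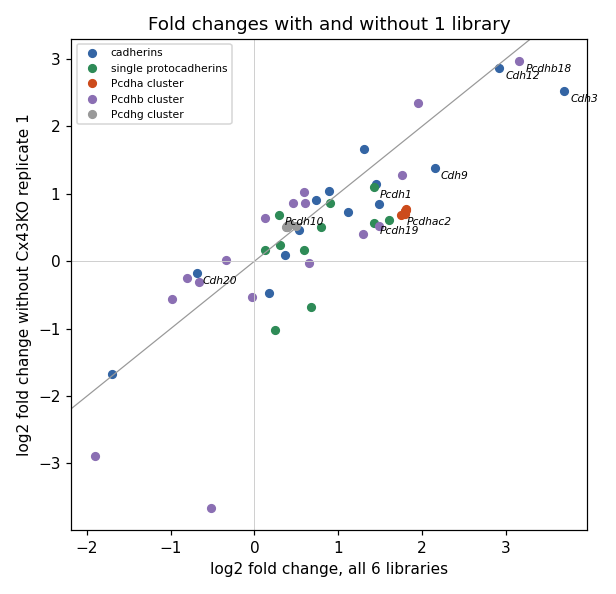
Log2 fold change of Cx43KO over Cx43FL with all 6 libraries (horizontal axis) against the value without Cx43KO replicate 1 (vertical axis), 1 point per tested gene, coloured by family, with the line of equal values. Cdh12 and Pcdhb18 stay near the line, while the alpha cluster drops from 1.80 to 0.75 and Pcdh19 from 1.43 to 0.57.

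All 6 tested genes of the alpha cluster had a positive log2 fold change, but their counts were nearly the same and should not be read as 6 separate measurements. An alpha transcript joins its own first exon to 3 exons that all share, 2860 bases or 48.6 to 54.5% of the transcript. Apart from Pcdha1 and Pcdha2, the genes differed by a factor of 1.06 to 1.24 between the highest and the lowest count of a library. The lowest count of the 6 genes was 172, 169 and 252 in Cx43FL and 1480, 494 and 778 in Cx43KO, which is 11.3, 11.2 and 16.4 CPM against 91.9, 19.9 and 24.0 CPM. The genotypes did not overlap, and Cx43KO replicate 1 was far above the other libraries. Log2 fold changes were 1.75 to 1.82 (edgeR adjusted p = 0.540 for each), and the median fell from 1.80 to 0.75 without Cx43KO replicate 1, the library with the highest neuron marker sum. For the isoform Pcdhac2, which is expressed by serotonergic and many other neurons without random choice, Cx43FL libraries held 14.1, 11.4 and 19.1 CPM and Cx43KO libraries 102, 21.1 and 27.2 CPM. Reads of the shared and of the own exons are not separated in these counts, and its excess over the lowest count of the cluster came to 42, 3 and 42 in Cx43FL, against 158, 31 and 102 in Cx43KO. In CPM this was 1.90 ± 1.47 against 4.73 ± 4.50 (SD, n = 3 libraries, exact permutation p = 0.4), so the groups overlapped. The counts of Pcdha9, both Pcdha11 genes, Pcdha12 and Pcdhac1 above the lowest were 0 to 61 per library, too few to tell these isoforms apart. Pcdha1 and Pcdha2 were counted far lower, at 3, 1 and 5 counts for Pcdha1 in Cx43FL and 27, 9 and 22 in Cx43KO, although they share the same exons in the annotation used here, and were not tested.

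The gamma cluster held the highest counts of all, on 3 shared exons of up to 2119 bases (41.7 to 45.2% of the transcript). The lowest count per library was 239, 209 and 273 CPM in Cx43FL and 253, 343 and 345 CPM in Cx43KO. Replicate 1 of Cx43KO lay within the Cx43FL range and the other 2 above it, the opposite order from the alpha cluster, and the median log2 fold change of the 9 genes was 0.39, or 0.52 without replicate 1. No gamma gene passed the edgeR test, the lowest adjusted p being 0.609. Pcdhgc3, a gamma isoform expressed in astrocytes and other cells without random choice, led at 293, 234 and 331 CPM in Cx43FL and 309, 422 and 416 CPM in Cx43KO (log2 fold change 0.42, SE 0.28). It had the largest excess over the lowest count of the cluster in 5 of 6 libraries, 816, 372 and 890 counts in Cx43FL and 900, 1973 and 2282 in Cx43KO. In CPM this was 45.5 ± 18.1 for Cx43FL against 68.5 ± 11.8 for Cx43KO (SD, n = 3 libraries, exact permutation p = 0.2), and the ranges overlapped. Pcdhga3 was the gamma gene whose groups did not overlap, at 239, 209 and 277 CPM in Cx43FL and 324, 344 and 354 CPM in Cx43KO (log2 fold change 0.50, SE 0.26). Its counts above the lowest came to 0, 0 and 56 in Cx43FL, against 1147, 33 and 284 in Cx43KO, so that 1 library held most of them and replicate 2 of Cx43KO fell below replicate 3 of Cx43FL. Pcdhgc5, an isoform expressed late in brain development, had 181, 175 and 39 counts above the lowest in Cx43FL and 186, 181 and 733 in Cx43KO. In CPM these were 11.9, 11.6 and 2.54 against 11.5, 7.27 and 22.6 (exact permutation p = 0.6), so the ranges overlapped. In the remaining gamma genes, Pcdhga8, Pcdhga9, Pcdhga11, Pcdhga12, Pcdhgb6 and Pcdhgc4, counts above the lowest were 0 to 184 per library. The plot of both clusters shows near-flat lines across most genes. Whether the same reads were counted for several genes was not tested.

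**Figure D4:**
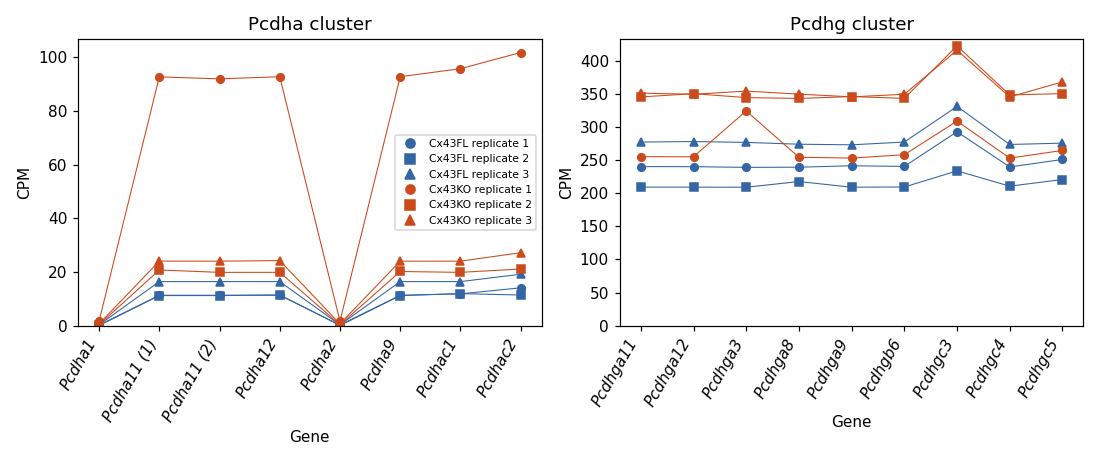
Normalised counts (CPM, vertical axes from 0) of the alpha genes (left) and gamma genes (right), 1 line per library (blue Cx43FL, orange Cx43KO, shapes are replicates 1 to 3). Lines run flat across genes that share exons, except at Pcdha1 and Pcdha2, Pcdhgc3 and, in Cx43KO replicate 1, Pcdhga3.

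Unlike the alpha and gamma genes, the beta protocadherins have no exon common to all, and 21 of the 22 are encoded by a single exon. Sharing between pairs of beta genes was not tested. On chromosome 18 Pcdhb21 spans 37513621 to 37518325 and Pcdhb22 spans 37517871 to 37524479, so reads in the overlap need not belong to 1 gene. Beta genes are close copies, and reads that matched more than 1 place in the genome had been removed. Their levels may therefore be understated to different degrees. Of the 22 genes 17 were tested, with 10 positive and 7 negative log2 fold changes and a median of 0.46. Pcdhb18 was at 1.19, 1.06 and 2.21 CPM in Cx43FL and at 16.7, 4.70 and 18.7 CPM in Cx43KO, from 18, 16 and 34 counts against 269, 117 and 607 counts. The genotypes did not overlap, and the log2 fold change of 3.16 (SE 0.85) ranged from 2.84 to 3.57 when each library was left out. The adjusted p was 0.490 by edgeR and 0.0138 by DESeq2, and the exact permutation p was 0.1. Pcdhb11 was the other beta gene without overlap, at 0, 20 and 22 counts in Cx43FL and 79, 37 and 98 in Cx43KO (log2 fold change 1.76, SE 1.42, edgeR adjusted p = 0.717). In CPM these were 0, 1.33 and 1.43 against 4.90, 1.49 and 3.03, so Cx43KO replicate 2 lay only just above the Cx43FL range. Both other beta genes with high mean counts varied more within than between genotypes. Pcdhb16 was at 17.8, 1.39 and 7.62 CPM in Cx43FL and at 1.43, 2.69 and 9.42 CPM in Cx43KO, and Pcdhb17 at 5.47, 0.597 and 3.65 CPM against 15.3, 2.37 and 6.24 CPM. Pcdhb4 had the lowest log2 fold change of all 57 genes (-1.91, SE 1.25), from 13, 130 and 42 counts in Cx43FL and 35, 8 and 25 in Cx43KO, and its value was -0.74 without Cx43FL replicate 2. The remaining 12 tested beta genes overlapped between the genotypes. Pcdhb1, Pcdhb2, Pcdhb6, Pcdhb20 and Pcdhb21 were too low to test. The map of beta genes shows that the gene with the most counts changed from library to library.

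**Figure D5:**
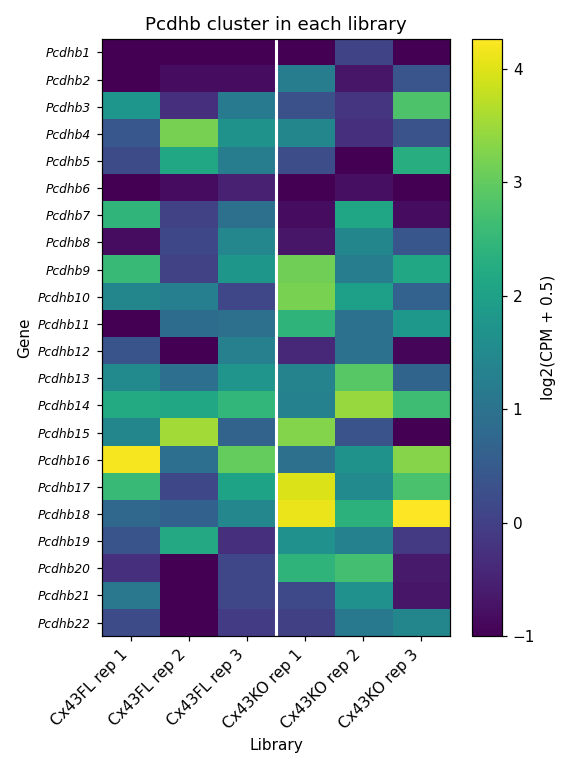
Level of each of the 22 beta protocadherins (rows) in each of the 6 libraries (columns, Cx43FL left and Cx43KO right of the white line), coloured by log2(CPM + 0.5). Pcdhb18 is bright in Cx43KO replicates 1 and 3 and dark in all Cx43FL libraries, while most other rows mix bright and dark cells within a genotype.

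The partners of cadherins inside the cell gave no call. None of the 10 catenins, which join classical cadherins to actin, had an unadjusted p below 0.05, and none separated the genotypes. Their median log2 fold change was 0.17, with 7 positive and 3 negative. Beta-catenin Ctnnb1, which binds the cadherin tail, was at 422, 373 and 390 CPM in Cx43FL and 660, 469 and 375 CPM in Cx43KO (log2 fold change 0.34, SE 0.29). The p120 catenin Ctnnd1, which keeps cadherins at the membrane, had the highest value (0.83, SE 0.39, edgeR adjusted p = 0.5995). Alpha-catenins gave log2 fold changes of 0.10 (SE 0.29) for Ctnna1, 0.30 (SE 0.44) for Ctnna2 and -1.96 (SE 1.92) for Ctnna3, whose counts were near 0. The remaining catenins were at -0.12 (SE 0.35) for Ctnnd2, 0.34 (SE 0.38) for Ctnnal1, 0.13 (SE 0.50) for Arvcf, 0.21 (SE 0.31) for Pkp4 and -0.04 (SE 0.39) for Jup. Among the 9 genes of the WAVE complex the median log2 fold change was 0.40, with 1 gene higher (Wasf2, 0.94, SE 0.34) and 1 lower (Abi1, -0.80, SE 0.29) at an unadjusted p below 0.05. The 7 genes of the enzymes that shed and cleave cadherins had a median of 0.58, with 1 gene higher at an unadjusted p below 0.05, the gamma-secretase subunit nicastrin Ncstn (1.10, SE 0.43). CTCF, cohesin and other regulators of the choice of clustered promoters had a median of -0.04 over 9 genes, and 0 had an unadjusted p below 0.05 in either direction. No gene of these 4 lists was called by edgeR or DESeq2.

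Large members of the cadherin superfamily outside the naming rule are the Fat, Dchs, Celsr and calsyntenin genes. Of 11 genes listed in the data 10 were tested, 10 had a positive log2 fold change, and the median was 1.12, or 0.93 with 7 of 10 positive without Cx43KO replicate 1. At an unadjusted p below 0.05, 5 were higher and 0 lower, and none was called by edgeR. Clstn2, a calsyntenin of synaptic membranes, was at 7.90, 13.0 and 7.42 CPM in Cx43FL and at 76.4, 16.8 and 45.8 CPM in Cx43KO. Its log2 fold change was 2.29 (SE 0.59), with an adjusted p of 0.490 by edgeR and 0.0138 by DESeq2. Celsr2, a planar cell polarity cadherin of ependyma and neurons, was at 32.7, 29.1 and 26.2 CPM in Cx43FL and 113, 45.5 and 65.2 CPM in Cx43KO (log2 fold change 1.35, SE 0.40, edgeR adjusted p = 0.492). In both genes the genotypes did not overlap and Cx43KO replicate 1 was highest.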

How the data were processed

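Polysomal RNA of whole hippocampi (n = 3 libraries per genotype) had been amplified before library preparation. The deposited values are raw counts per Ensembl transcript of 1 library. The authors filtered reads on length and quality in the Eoulsan pipeline, aligned them to mm10 with STAR, removed reads that matched more than once and counted with HTSeq-count (0.5.3) on Ensembl release 75. The submitters' processing notes also name bcl2fastq 1.8.4. Whether counting used strand is not given in the sources used here, so reads of a gene and an overlapping or antisense gene could not be told apart. Of the transcripts 73157 were matched to symbols in GENCODE M21 (GRCm38) and 2309, with 1.60 to 1.78% of counts, were not. Each gene stood by its transcript with the highest total over the 6 libraries.

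Genes were filtered with filterByExpr and tested with edgeR 4.0.16 (TMM, quasi-likelihood, genotype alone, Benjamini-Hochberg adjustment over 13545 genes) in R 4.3.3. A gene was called at an adjusted p below 0.05 with a mean normalised count above 50 in the higher genotype. DESeq2 1.42.0 was an alternative, and gave no adjusted p for Pcdhb12 and Pcdhb22. Single genes also had an exact 2-sided permutation test on log2(CPM + 0.5). The biological coefficient of variation was 0.600. Scripts were tested on simulated data. Counts of a cluster gene above the lowest of its cluster were computed after seeing the data.

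The families and gene lists were chosen with earlier results of these data known. Genes were named by rule: the 8 with the highest mean CPM in Cx43FL, the 10 largest rises and 5 largest falls without overlap, the 3 listed by the study, the 3 highest of each cluster, Cdh2 and Cdh5. The other tested genes outside the clusters and Pcdhb4 were named after their values were seen. Same-numbered libraries were not treated as pairs (correlations of their deviations from the genotype mean 0.011, -0.0040 and -0.055). Whether they were collected or processed together is not given in the sources used here. No 2 libraries of a genotype agreed within sampling noise (chi-square per degree of freedom at least 33.7). Alternatives were other size factors, filters, tools and pseudocounts, the replicate block, summed transcripts and each library left out. Counts are of amplified cDNA without molecular identifiers, so depth limits cover counting error only.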

Additional observations from a re-analysis of the deposited data

How the results depend on the processing

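Counts of genes called over the whole table moved most. With TMM and edgeR 1 gene was called, against 0 with at least 10 counts in every library, 0 with summed transcripts, 137 by DESeq2, 2 with the replicate block and 0 to 11 with each library left out (11 without Cx43KO replicate 1). None of these calls was a cadherin or protocadherin except 2 by DESeq2, Cdh12 and Pcdhb18. The number of these genes with all Cx43KO libraries above the Cx43FL range was 13, or 7 with 1 gene each for the alpha and the gamma cluster, a choice made after seeing the data. It was 17 to 28 with each library left out, highest without Cx43FL replicate 3 (28), Cx43KO replicate 1 (25) and Cx43KO replicate 2 (24). The number below went from 0 to between 0 and 4, with 4 without Cx43KO replicate 1 and 1 without Cx43FL replicate 1 or 2 or Cx43KO replicate 2 or 3. With fewer libraries, separation is easier by construction. The median log2 fold change of the tested genes stayed between 0.51 and 0.79 over all alternatives.

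Of the single cadherin and protocadherin genes named, 6 changed sign. With each library left out the log2 fold change was -0.47 to 0.43 for Cdh13, -0.065 to 1.73 for Cdh18, -0.18 to 0.69 for Pcdh10, -1.02 to 0.61 for Pcdh11x, -0.43 to 1.85 for Pcdh15 and -0.68 to 1.18 for Pcdh18. Summing transcripts gave -0.35 for Cdh13 and -1.10 for Pcdh15, and the replicate block gave -0.095 for Pcdh11x. The cause was not tested. Deviations of same-numbered libraries were nearly uncorrelated, which cannot show whether those libraries were handled together. The block changed no call among these genes. A pseudocount of 2 moved the exact permutation p of 4 genes. The tested beta protocadherins had standard errors of 0.85 to 1.71 on the log2 scale. Even the log2 fold change of 3.16 in Pcdhb18 (SE 0.85) was not called by edgeR, so large differences could go undetected with these libraries.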
